A study of Canis lupus familiaris with 2 samples.

Results

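The 6 genes RAC2, DOCK8, HCLS1, FERMT3, PTPRCAP and CAPZB were compared between a doxorubicin-resistant lymphoma cell line and the line it came from. They are grouped under the name blood-cell actin and integrin regulators. The genes were picked by symbol from the authors' comparison table with their values already known, so their direction and size are described and not tested. Each had 1 row, giving 6 of the 1729 rows in the table. The study sequenced poly-A RNA from CLBL-1 8.0, which was kept in medium with 8 µM doxorubicin hydrochloride, and from CLBL-1, for which no drug is named in the labels. Both are dog B-cell lymphoma cells, labelled as coming from lymph node at tumor stage IV, and both grew in RPMI medium with 10% fetal bovine serum and antibiotics. Each line is 1 sample, with RNA taken from 3 dishes. Whether the dishes were pooled, whether CLBL-1 8.0 is a single clone and whether the drug was removed before harvest is not stated in the labels, so drug exposure and acquired resistance cannot be told apart.

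White blood cells move, spread and form contacts by assembling actin filaments beneath the membrane and by switching integrins, the receptors that grip other cells and matrix, into an active state. Rac and CDC42, small GTPases, set where filaments form: exchange factors load them with GTP, and the active GTPase turns on the Arp2/3 complex, which grows new branches from existing filaments. Capping protein then closes the fast-growing filament ends and keeps branches short, while kindlins and talins bind the integrin tails from inside the cell. RAC2, DOCK8, HCLS1, FERMT3 and PTPRCAP are best known from cells of the blood lineage, whereas CAPZB serves nearly all cell types. The word blood-cell in the name therefore covers 5 of the 6 genes. PTPRCAP is in the set as a CD45-associated protein, and is in no actin or integrin list used here.

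Of the 6 genes, 5 were lower in CLBL-1 8.0 than in CLBL-1 and 1, CAPZB, was higher. Over all 1729 rows, 34.8% were lower and 65.2% were higher in CLBL-1 8.0. All 6 genes differed at least 4-fold on the log2(value + 1) scale, which adds 1 to each abundance before the ratio is taken and so shrinks the differences of low values. With 5 added instead, HCLS1 at -1.88 and DOCK8 at -1.67 on the log2 scale no longer passed this limit. With 1 added, the limit was passed by 3.35% of all rows in the lower direction and by 3.76% in the higher direction. Because the genes were chosen from this same contrast, nothing is read from their share. The values are the authors' abundances per gene. Their unit is not stated, the depth is unknown and no replicate exists, so no value below has an error and no difference has a replicate check. In bulk samples, fewer cells with a transcript and less of it in each cell cannot be told apart.

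RAC2, the Rac GTPase of blood cells (gene ID 481271, chromosome 10 from 27295597 to 27311864, plus strand), was at 0.141 in CLBL-1 8.0 against 105 in CLBL-1. Its log2 difference was -6.54 with the pseudocount of 1, the second largest decrease in the table. In CLBL-1 it stood above 90.7% of the listed rows, and in CLBL-1 8.0 above 0.81% of them. RAC1, the Rac GTPase found in most tissues, was at 501 in CLBL-1 8.0 against 265 in CLBL-1, a 1.89-fold difference in the opposite direction. RAC1 lies on chromosome 6, where 214 of 227 rows were higher in CLBL-1 8.0. How reads were divided between the related RAC1 and RAC2 transcripts is not stated.

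DOCK8 is an exchange factor that activates the GTPase CDC42 in lymphocytes, and its loss in humans causes a combined immunodeficiency. The gene (ID 476333, chromosome 1 from 89152456 to 89379203, plus strand) was at 1.22 in CLBL-1 8.0 against 14.8 in CLBL-1. Its log2 difference was -2.84, and the fold was 12.2 without a pseudocount, the smallest fold of the 6 genes. DOCK2, the exchange factor that activates Rac in lymphocytes, was at 30.7 in CLBL-1 8.0 against 61.3 in CLBL-1, with a log2 difference of -0.98, on chromosome 4, where 37 of 62 rows were lower. VAV1, a further exchange factor of blood cells, which acts downstream of antigen receptors, was at 2.27 in CLBL-1 8.0 against 14.5 in CLBL-1, with a log2 difference of -2.24.

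HCLS1 encodes the blood-cell relative of cortactin, which binds actin filaments and the Arp2/3 complex and is a substrate of the Lyn kinase. The gene (ID 100684969, chromosome 33 from 24901023 to 24925710, minus strand) was at 0.120 in CLBL-1 8.0 against 13.8 in CLBL-1, with a log2 difference of -3.73. Its value in CLBL-1 8.0 was the lowest of the 6 genes. It stood near the middle of the listed rows in CLBL-1, above 51.2% of them, and above 0.752% of them in CLBL-1 8.0. The ratio without a pseudocount was 115, and it rests on a value close to 0.

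FERMT3 encodes kindlin-3, the kindlin of blood cells and platelets, which binds integrin tails and is needed for integrin activation. The gene (ID 483766, chromosome 18 from 52833954 to 52860408, minus strand) was at 1.81 in CLBL-1 8.0 against 84.0 in CLBL-1, with a log2 difference of -4.92. PTPRCAP encodes a membrane protein that associates with CD45, the receptor phosphatase that sets the activity of Src family kinases in leukocytes. It (ID 106557461, chromosome 18 from 50031740 to 50034200, plus strand) was at 1.55 in CLBL-1 8.0 against 80.0 in CLBL-1, with a log2 difference of -4.99. The values of FERMT3 and PTPRCAP lay close together in both lines: leaving out placeholder names that begin with LOC, no other row was nearer to either in the plane of the 2 log2(value + 1) levels, with a distance of 0.156 between them. Both genes were chosen with these values known, so nothing is read from their nearness. FERMT3 and PTPRCAP lie on the same chromosome, 2.80 Mb apart, and of the 11 listed rows between them 8 were higher and 3 lower in CLBL-1 8.0. On chromosome 18 as a whole, 31 of 48 rows were higher.

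CAPZB encodes the beta subunit of capping protein, which works as a pair with an alpha subunit. The gene (ID 478209, chromosome 2 from 79182668 to 79311529, plus strand) was at 201 in CLBL-1 8.0 against 3.78 in CLBL-1, 53.2-fold higher, with a log2 difference of 5.40. The CLBL-1 value is low for a gene used by nearly all cell types, and how reads were assigned to its transcripts in each line could not be examined from 1 value per gene, so the size of this difference is uncertain. CAPZA1, an alpha subunit, was at 105 in CLBL-1 8.0 against 223 in CLBL-1, with a log2 difference of -1.08, so the listed subunits of the capping heterodimer differed in opposite directions. CAPZB was the member with the highest value in CLBL-1 8.0 and the lowest in CLBL-1. Only 2 rows of the table were below 4 in CLBL-1 and at least 100 in CLBL-1 8.0, CAPZB and a TUBB4B row. Those limits were set after the values were seen.

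**Figure D1:**
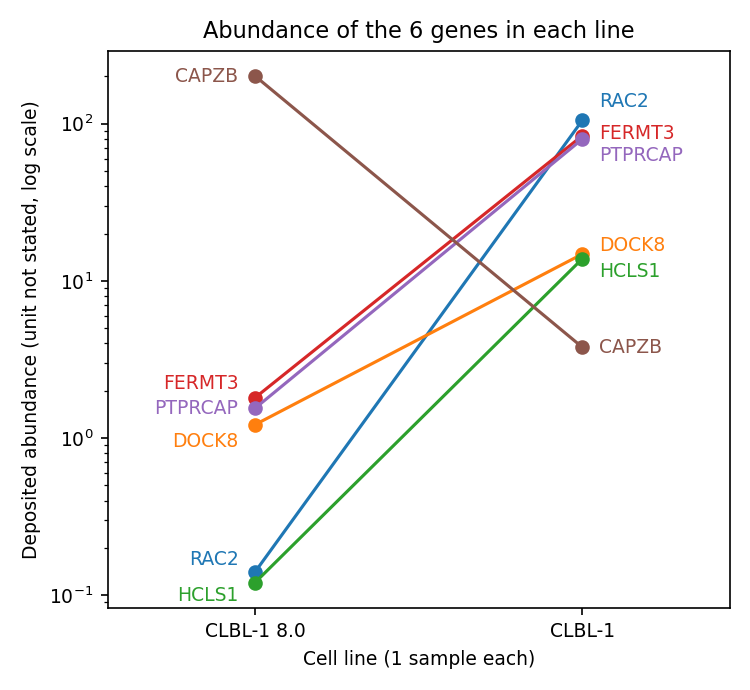
Deposited abundance of the 6 genes on a log axis, with CLBL-1 8.0 at the left and CLBL-1 at the right; each point is 1 sample and lines join the same gene. Of the lines, 5 join values between 0.120 and 1.81 in CLBL-1 8.0 and between 13.8 and 105 in CLBL-1, and the line of CAPZB crosses them, with 201 in CLBL-1 8.0 and 3.78 in CLBL-1.

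The ratio between the 2 lines was not the same for the 5 lower genes. As deposited, the order of levels in CLBL-1 8.0 was CAPZB, FERMT3, PTPRCAP, DOCK8, RAC2 and HCLS1, and in CLBL-1 it was RAC2, FERMT3, PTPRCAP, DOCK8, HCLS1 and CAPZB. RAC2 therefore stood first in CLBL-1 and next to last in CLBL-1 8.0, while FERMT3, PTPRCAP and DOCK8 kept their order among themselves. With 1 sample per line there is no spread by which to separate neighbours in this order, and FERMT3 and PTPRCAP, or RAC2 and HCLS1 in CLBL-1 8.0, differ little. The size of each difference depends on how values near 0 are treated. The log2 difference of HCLS1 was -6.85 without a pseudocount, -3.73 with 1 added and -1.88 with 5 added. For RAC2 the same settings gave -9.55, -6.54 and -4.42, and for DOCK8 -3.61, -2.84 and -1.67. Adding the same number to both lines cannot change the direction. Levels of different genes are comparable only if the unit is per transcript length, as FPKM and TPM are, which is not stated.

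Few other rows had such values. Of 320 rows at 50 or more in CLBL-1, 5 were below 2 in CLBL-1 8.0, and these were RAC2, FERMT3, PTPRCAP, SLPI and an RPL18 row. The RPL18 row, of a ribosomal protein gene, was at 1.84 in CLBL-1 8.0 against 3359 in CLBL-1. How reads were assigned in this row and in those of RAC2, FERMT3 and PTPRCAP was not tested. Of 1020 rows at 10 or more in CLBL-1, 7 were below 0.2 in CLBL-1 8.0, including RAC2 and HCLS1. These limits, too, were set after the values were seen. SLPI, a secreted antiprotease, was the row nearest to RAC2, at 0.194 in CLBL-1 8.0 and 97.8 in CLBL-1 with a distance of 0.124. The row nearest to DOCK8 was CHKA, a choline kinase, at 1.36 in CLBL-1 8.0 and 14.1 in CLBL-1 with a distance of 0.113. The rows nearest to HCLS1 were NLRC3, listed at 0 in CLBL-1 8.0 and at 13.7 in CLBL-1, CENPV at 0.0252 in CLBL-1 8.0 and 11.1 in CLBL-1, and MZB1 at 0.281 in CLBL-1 8.0 and 18.7 in CLBL-1. CAPZB had no close counterpart, and its nearest row, CLDN12, lay at a distance of 1.55 with 111 in CLBL-1 8.0 and 10.7 in CLBL-1. Likeness here means nearness of 2 values, 1 from each line.

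**Figure D2:**
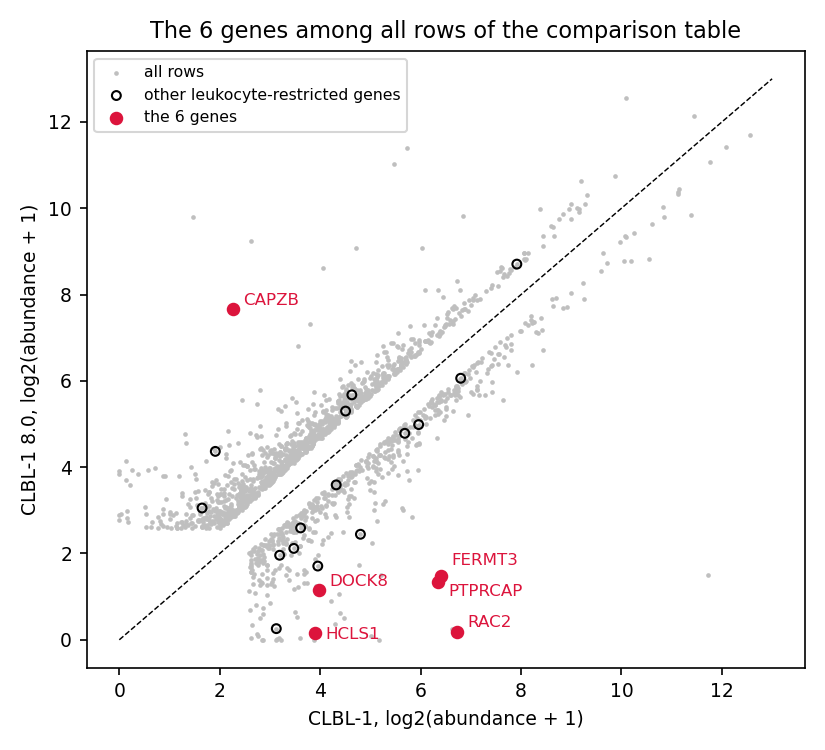
Log2(abundance + 1) in CLBL-1 (horizontal axis) and in CLBL-1 8.0 (vertical axis) for all 1729 rows in grey, with the 6 genes in red and the other listed leukocyte-restricted genes as open circles; the dashed line marks equal values. The empty band along the line is where the table holds no rows, and RAC2, FERMT3 and PTPRCAP lie in a sparse corner, above 50 in CLBL-1 and below 2 in CLBL-1 8.0.

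The listed rows nearest to each of the 6 genes had smaller differences than the gene itself. The 6 genes were chosen with their large differences known, so this was largely fixed by the choice and nothing is read from it. For DOCK8, HCLS1 and CAPZB none of the 3 protein-coding genes on either side in the reference annotation had a row. For each gene the 5 nearest listed rows on either side were taken by position (deposited positions, on CanFam3.1 by the submitters' processing notes), and 2 on one side of HCLS1, where the listed rows of chromosome 33 end. Among the 57 distinct neighbouring rows, 35 were higher and 22 lower in CLBL-1 8.0, and their log2 differences ran from -2.68 to 1.23. Over all rows 65.2% were higher, so a majority of higher neighbours is near what the listed rows hold in general. The neighbours of RAC2 were 8 higher and 2 lower. The nearest on either side were MFNG, a glycosyltransferase that modifies Notch receptors, at 165 in CLBL-1 8.0 and 99.1 in CLBL-1, and IL2RB, the interleukin-2 receptor beta chain, at 31.5 in CLBL-1 8.0 and 18.3 in CLBL-1. Between them RAC2 had a log2 difference of -6.54, while those of MFNG and IL2RB were 0.73 and 0.75. The neighbours of FERMT3 were 7 higher and 3 lower, with NRXN2, a neurexin, at 1.52 in CLBL-1 8.0 and 6.11 in CLBL-1 on one side, and MACROD1, an ADP-ribose hydrolase, at 14.6 in CLBL-1 8.0 and 7.87 in CLBL-1 on the other.

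PTPRCAP had 6 higher and 4 lower neighbours, and the rows on both sides of it were lower: LOC476006 was at 46.6 in CLBL-1 8.0 and 74.3 in CLBL-1, and CARNS1, carnosine synthase, at 2.35 in CLBL-1 8.0 and 6.69 in CLBL-1. Among its neighbours was CHKA, whose log2 difference of -2.68 was the largest decrease of all 57. The nearest listed rows to DOCK8 on either side, LOC100856248 and SEMA4D, a semaphorin of lymphocytes, were lower, with log2 differences of -1.01 and -1.04, and of its 10 neighbours 5 were higher and 5 lower. HCLS1 lay between FSTL1, a secreted glycoprotein, at 19.8 in CLBL-1 8.0 and 34.2 in CLBL-1, and the zinc finger gene ZNF148, at 9.24 in CLBL-1 8.0 and 18.5 in CLBL-1. On chromosome 33, 13 of 16 rows were higher, and FSTL1, HCLS1 and ZNF148 were the 3 lower ones. CAPZB had 4 higher and 6 lower neighbours, and lay between the zinc finger gene ZNF436, at 15.8 in CLBL-1 8.0 and 9.31 in CLBL-1, and ALDH4A1, an enzyme of proline breakdown, at 6.18 in CLBL-1 8.0 and 19.0 in CLBL-1. The nearest listed rows of DOCK8, HCLS1 and CAPZB are far away in several cases, up to 7447 kb for SEMA4D, and the genes in between that have no row were not analysed here.

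**Figure D3:**
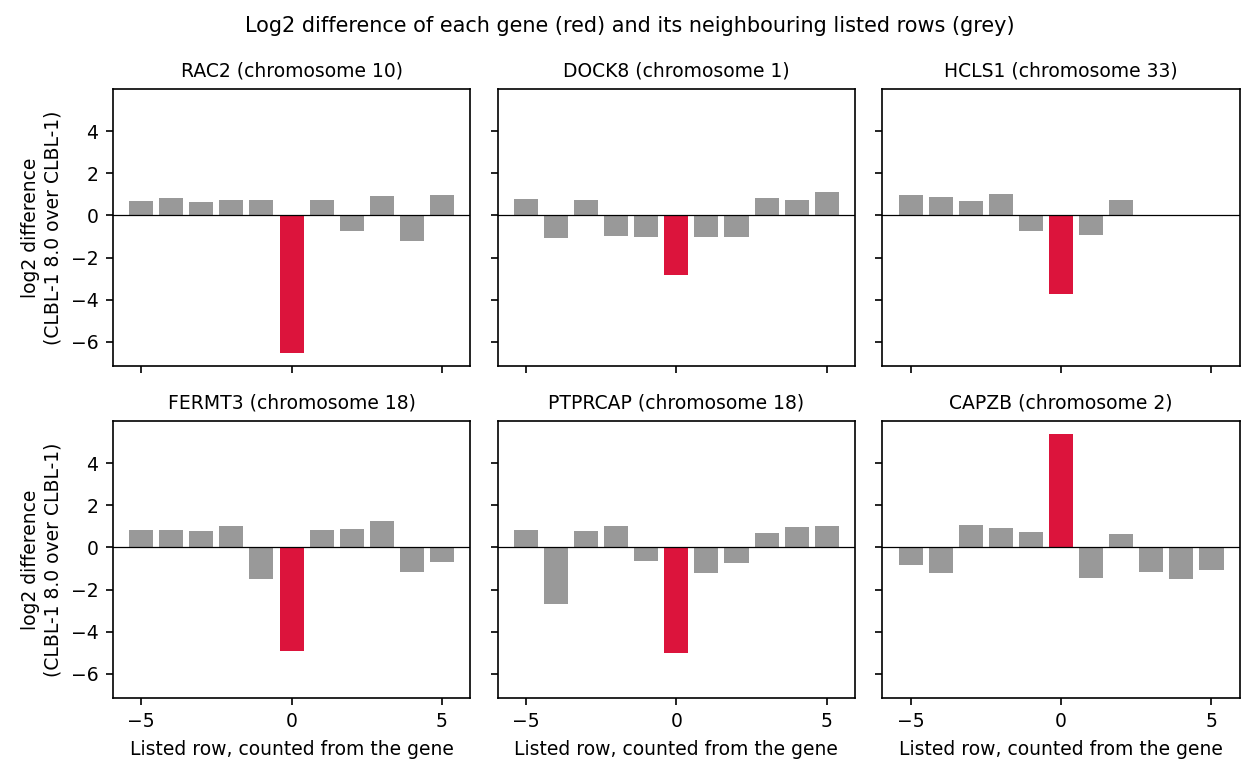
Log2 difference, CLBL-1 8.0 over CLBL-1 with a pseudocount of 1, of each of the 6 genes (red, at 0) and of up to 5 listed rows on each side of it (grey), in order along the chromosome and not to scale in distance. The grey bars run from -2.68 to 1.23. Each red bar is longer than every grey bar in its panel, which the choice of genes with known large differences largely fixed.

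In the dog reference annotation UU_Cfam_GSD_1.0, used for gene order only, all 6 gene IDs were found, each as a protein-coding gene, and PTPRCAP carries the placeholder name LOC106557461. FERMT3 overlaps TRPT1 there, RAC2 overlaps the microRNA gene MIR1835, and CAPZB overlaps 2 other protein-coding placeholder genes and 3 noncoding ones. None of the 6 genes overlapped another listed row by the deposited coordinates. The strand setting of the counting is not stated, so reads from such overlapping genes may not have been separable.

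The listed genes of the wider machinery were split between the directions. The table holds no row with an absolute log2 fold below 0.67 where finite, and genes of these lists without a row were not analysed. A group of 6 lists had 27 listed genes besides the members. They cover Arp2/3 and related filament regulators, capping proteins, filament proteins, integrins, integrin adaptors, and CD45 with leukocyte phosphatases and Src kinases. Of these, 16 were higher and 11 lower in CLBL-1 8.0, or 59.3% higher against 65.2% of all rows, and their median log2 difference was 0.76 against 0.73. Their differences ran from -1.50 to 1.61, and none of the 27 passed the 4-fold limit. RAC1 and the exchange factors DOCK2 and VAV1 are in none of these lists. Of them, VAV1 at -2.24 passed the limit, and RAC1 at 0.92 and DOCK2 at -0.98 did not. Of the 27, 3 lie on chromosome 6 and all 3 were higher. Outside chromosome 6, 13 of 24 were higher, or 54.2%, against 60.8% of all rows there.

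Arp2/3 and related filament regulators had 7 of 51 genes listed, with 4 higher, 3 lower and a median log2 difference of 0.76. Besides HCLS1, the lower ones were WIPF1, which binds and stabilises the WASP protein of blood cells, at 14.6 in CLBL-1 8.0 and 42.0 in CLBL-1, and ABI3, a subunit of WAVE complexes, at 1.17 in CLBL-1 8.0 and 5.01 in CLBL-1. WIPF1 lies on chromosome 36, where 45 of 46 rows were lower. The higher ones included WASL, the WASP relative of most tissues, at 10.7 in CLBL-1 8.0 and 4.37 in CLBL-1, the coronin CORO7 at 40.2 in CLBL-1 8.0 and 19.2 in CLBL-1, and the actin nucleator SPIRE2 at 24.6 in CLBL-1 8.0 and 13.1 in CLBL-1. Capping, severing and monomer-binding proteins had 4 of 52 genes listed, with 2 higher, 2 lower and a median log2 difference of 0.40 that became -0.33 when centred and -0.81 without CAPZB. In this list ADD3, an adducin, was at 16.3 in CLBL-1 8.0 and 29.2 in CLBL-1, and AIF1L, an actin-binding protein, at 20.7 in CLBL-1 8.0 and 6.09 in CLBL-1.

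Actins, crosslinkers and motors had 5 of 70 genes listed, with 2 higher, 3 lower and a median log2 difference of -0.74, which turned to 0.028 over rows that reached 10 in either line. LCP1, the plastin that bundles actin in leukocytes, was at 65.7 in CLBL-1 8.0 and 110 in CLBL-1, and the spectrin SPTBN1 at 18.4 in CLBL-1 8.0 and 46.5 in CLBL-1. ACTA1, the skeletal muscle actin, had low values, at 1.71 in CLBL-1 8.0 and 6.65 in CLBL-1. TAGLN2, a transgelin, was higher at 1731 in CLBL-1 8.0 and 936 in CLBL-1, and the motor MYO6 at 15.4 in CLBL-1 8.0 and 8.44 in CLBL-1.

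None of the 26 integrin subunits had a row, so the receptors that kindlin-3 acts on were not analysed here. Of 55 integrin activators and adhesion adaptors 10 were listed, with 7 higher, 3 lower and a median log2 difference of 0.85. FERMT3 was the largest difference among them. TLN2, a talin, the kindlins' partner class at integrin tails, was higher at 6.87 in CLBL-1 8.0 and 2.43 in CLBL-1, as was ZYX, the adhesion protein zyxin, at 19.4 in CLBL-1 8.0 and 8.25 in CLBL-1. RASSF5, a Rap1 effector that promotes integrin activation in lymphocytes, was at 50.1 in CLBL-1 8.0 and 23.8 in CLBL-1, and CYTH3, an exchange factor for ARF GTPases on chromosome 6, at 18.6 in CLBL-1 8.0 and 6.16 in CLBL-1. SKAP1, an adaptor that links antigen receptors to integrins in T cells, was lower at 12.7 in CLBL-1 8.0 and 36.8 in CLBL-1. Of 36 genes around CD45, leukocyte phosphatases and Src kinases, 5 were listed, with 2 higher, 3 lower and a median log2 difference of -0.60, which turned to 0.032 without PTPRCAP. PTPRC itself, which encodes CD45, had no row. CSK, the kinase that restrains Src kinases and so works against CD45, was at 100.1 in CLBL-1 8.0 and 164 in CLBL-1. DUSP2, a MAP kinase phosphatase, was at 3.68 in CLBL-1 8.0 and 6.10 in CLBL-1, while the phosphatase PTPRE was higher at 28.2 in CLBL-1 8.0 and 13.7 in CLBL-1 and the Src family kinase YES1 at 31.4 in CLBL-1 8.0 and 19.4 in CLBL-1.

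A list of 82 genes known mainly from white blood cells, whatever their function, had 20 listed, with 5 higher, 15 lower and a median log2 difference of -1.13. This list contains 5 of the 6 genes. The other 15 were 5 higher and 10 lower, with a median of -0.90, against 34.8% lower and a median of 0.73 over all rows. None of the 15 lies on chromosome 6, and outside that chromosome 589 of 1502 rows were lower. LCP2 and DOCK2 lie on chromosome 4, where 37 of 62 rows were lower, and PIK3CD on chromosome 5, where 97 of 153 were. The list was made with earlier results of these data known, so this count was not tested. LCP2, which encodes the adaptor SLP-76 and lies on chromosome 4, was at 0.196 in CLBL-1 8.0 and 7.73 in CLBL-1, with a log2 difference of -2.87 that was slightly larger than that of DOCK8. TRAF3IP3, an adaptor of lymphocytes, was at 4.45 in CLBL-1 8.0 and 26.9 in CLBL-1, and the receptor subunit IL10RA was the largest increase of the list, at 19.6 in CLBL-1 8.0 and 2.76 in CLBL-1. TRAF3IP3 and IL10RA were picked after their values were seen.

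None of the 18 B cell markers in the list used here had a row, so the labelled B cell origin was not compared with them. MZB1, a gene of marginal zone B cells and plasma cells outside that list, was lower in CLBL-1 8.0, as given above. Of 28 T and NK cell markers, 6 were listed, 3 higher and 3 lower, and their values summed to 104 in CLBL-1 8.0 and 88.1 in CLBL-1. TRAT1 was at 20.6 in CLBL-1 8.0 and 2.72 in CLBL-1, ICOS at 7.67 in CLBL-1 8.0 and 2.28 in CLBL-1, and GZMA at 47.1 in CLBL-1 8.0 and 23.5 in CLBL-1. THEMIS was at 0.0989 in CLBL-1 8.0 and 5.69 in CLBL-1, PRF1 at 1.07 in CLBL-1 8.0 and 6.67 in CLBL-1, and EOMES at 27.7 in CLBL-1 8.0 and 47.3 in CLBL-1. Of 23 myeloid and platelet markers FCER1G was listed, at 14.0 in CLBL-1 8.0 and 7.74 in CLBL-1, and of 19 stromal and epithelial markers EPCAM, at 2.07 in CLBL-1 8.0 and 5.26 in CLBL-1. No listed marker was at 0 in either line. RAC2 and FERMT3 are also used by T cells and myeloid cells. The part of other cell types in the 6 genes was not tested.

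**Figure D4:**
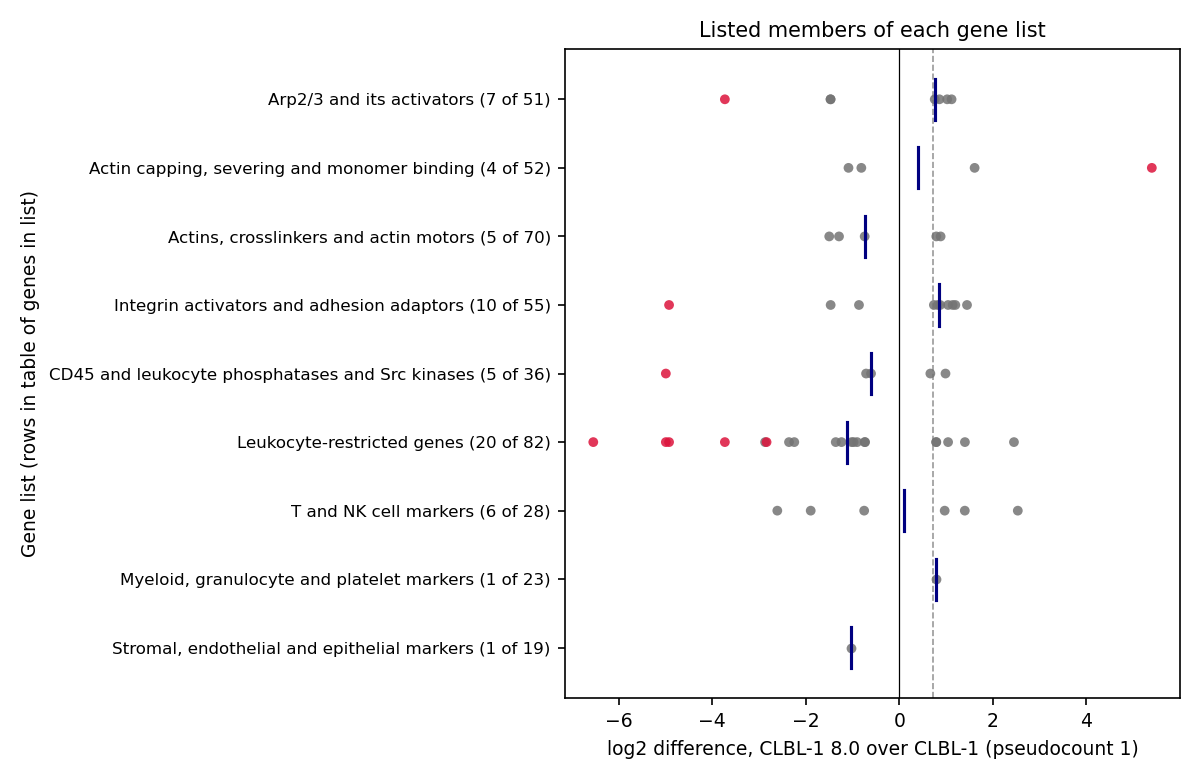
Log2 difference, CLBL-1 8.0 over CLBL-1 with a pseudocount of 1, of every listed gene (grey points; the 6 genes in red) of each gene list, with the list's median as a blue bar, the solid line at 0 and the dashed line at the median of all 1729 rows, 0.73. Outside the leukocyte-restricted list and the cell markers, the grey points lie between -1.50 and 1.61. The red points of those same lists, of genes chosen with their values known, lie beyond them, at -3.73 or lower and at 5.40. In the leukocyte-restricted list the red points also include DOCK8 at -2.84, and LCP2, in grey, lies at -2.87.

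The authors' deposited tables of enriched terms named the 6 genes unevenly. RAC2 was named in 22 terms, DOCK8 and HCLS1 in 3 each, FERMT3 and CAPZB in 2 each and PTPRCAP in none, among 118 ontology terms and 50 KEGG pathways. For the counts of higher genes given below, the share over all rows was 65.2% higher in CLBL-1 8.0, and nothing is read from these counts. In the authors' deposited table the p-value of endocytosis, which names CAPZB, was 0.00018, the smallest of the KEGG pathways, and 31 of its 37 genes were higher in CLBL-1 8.0. Fc epsilon RI signalling, which names RAC2, had a p-value of 0.000618 in the authors' deposited table, with 6 of 15 genes higher. In the authors' deposited table the platelet activation pathway, which names FERMT3, had a p-value of 0.0331, and 9 of its 18 genes were higher. DOCK8 was named in the term intracellular, with a p-value of 0.0141 and 54 of 77 genes higher in the authors' deposited table, and in small GTPase mediated signal transduction, with 0.036 and 17 of 25 genes higher in the authors' deposited table. Immunological synapse formation named DOCK8, DOCK2 and PRF1, with a p-value of 0.0619 in the authors' deposited table. All 3 were lower in CLBL-1 8.0, against 34.8% of all rows, but DOCK8 was chosen with its value known. DOCK2 and PRF1 both lie on chromosome 4, where 37 of 62 rows were lower, so nothing is read from this count. The actin filament term, at 0.0872 in the authors' deposited table, named RAC2 and CAPZB among 8 genes, 4 higher and 4 lower.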

How the data were processed

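The authors sequenced RNA of 1 sample per line, the resistant CLBL-1 8.0 and its parent CLBL-1. HISAT2, StringTie and the genome build CanFam3.1 are named per the submitters' processing notes; versions, annotation, strand setting and the rule that selected rows are not stated there. The deposited abundances have no stated unit, are not whole numbers and cover selected rows only, so depth is unknown. The log2 fold changes, per the file headers by the authors, equal log2 of CLBL-1 8.0 over CLBL-1 without a pseudocount, to within 1.6e-14 in the 1720 rows above 0 in both lines. In every row the higher of the 2 lines was at 5.01 or more, with an absolute log2 fold of at least 0.67 where finite. The p-value of each term is as deposited by the authors, with no stated background or adjustment.

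Differences were computed as log2((CLBL-1 8.0 + 1)/(CLBL-1 + 1)) over all 1729 rows with Python 3.11.15, pandas 2.3.3 and NumPy 2.4.6, and drawn with Matplotlib 3.10.9. No test was made, since each group is 1 sample. The functions were tested on simulated data. The text names the 6 genes, up to 6 listed rows of each list by absolute difference, the nearest listed row on each side of a gene and up to 3 rows nearest to it in both log2 levels; exceptions are stated beside them. RAC1, DOCK2 and VAV1 were chosen after their values were seen. Some lists are not reported here. Genes named through a deposited term were also chosen after their values were seen. Members, lists and alternatives were chosen with earlier results of these data known.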

Additional observations from a re-analysis of the deposited data

How the results depend on the processing

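The directions of the 6 genes could not change under the 4 settings tried, so their constancy is no check. A pseudocount keeps the direction. Scaling and centring shift a log2 difference by at most 0.32 and 0.73, less than the smallest difference, -2.84 for DOCK8. Both shifts come from the selected rows only, which hold no finite absolute log2 fold below 0.67. Neither is therefore a normalization over all genes, and the median depends on which direction has more rows. The sizes depend on how low values are treated. Without a pseudocount the log2 difference was -9.55 for RAC2, -6.85 for HCLS1, -5.69 for PTPRCAP, -5.54 for FERMT3 and -3.61 for DOCK8, so HCLS1 ranked second among the lower genes. With a pseudocount of 5 the values were -4.42 for RAC2, -3.71 for FERMT3, -3.70 for PTPRCAP, -1.88 for HCLS1, -1.67 for DOCK8 and 4.55 for CAPZB, so HCLS1 and DOCK8 no longer differed 4-fold. Centring on the median of all rows lowers every difference by 0.73 and gave -7.27 for RAC2, -5.72 for PTPRCAP, -5.65 for FERMT3, -4.46 for HCLS1, -3.57 for DOCK8 and 4.67 for CAPZB.

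Over all rows, 416 were higher and 249 lower by at least 2-fold with the pseudocount of 1. The counts were 197 and 154 with a pseudocount of 5. They were 216 and 533 with the CLBL-1 values scaled by 1.25 to equal upper quartiles, a shift of 0.32 on the log2 scale. Of 7 lists with at least 3 rows, 3 had a median below 0, and 5 had one after centring. The capping list's median turned to -0.33 when centred and to -0.81 without CAPZB. The median of actins and crosslinkers turned to 0.028 over rows that reached 10. That of CD45, leukocyte phosphatases and Src kinases turned to 0.032 without PTPRCAP, and that of T and NK cell markers to -0.62 when centred.

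No paired analysis was possible because each line is 1 sample. The depth is unknown, so values near 0 carry no interval.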
